A study of Mus musculus with 4 samples.

Results

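The genes described here write, maintain, remove and help to fuel the removal of cytosine methylation in DNA. They were taken as the rows of the deposited gene count table whose symbol was Dnmt1, Dnmt3a, Dnmt3b, Uhrf1, Tet1, Tet2, Tet3, Tdg, Idh1 or Idh2, and all 10 were found among 24421 genes. The table holds RNA sequencing counts of LSK cells (lineage-negative, Sca1-positive, Kit-positive bone marrow cells, the fraction that contains hematopoietic stem cells and early progenitors) sorted from mice aged 13 to 15 months. The mice were wild type (WT) or carried 1 mutant allele of the tumour suppressor p53, R248W, beside a normal one (p53R248W/+), and there were 2 libraries of each genotype. The labels give no further allele or agent and do not say whether the libraries came from separate animals or pools. The p-values thus reflect no more than the spread among these 4 libraries, part or all of which may be technical.

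DNA methylation is placed on cytosines, mostly where a guanine follows (CpG). Dnmt3a and Dnmt3b set new marks, and Dnmt1 copies them to the new strand after replication, guided there by Uhrf1, which recognises half-methylated DNA. The Tet dioxygenases oxidise the methyl group using 2-oxoglutarate, which the isocitrate dehydrogenases Idh1 and Idh2 produce, and Tdg excises the most oxidised forms so that repair restores a plain cytosine. In blood, DNMT3A and TET2 are among the genes most often mutated when a single stem cell clone expands with age, and mouse stem cells without Dnmt3a or Tet2 self-renew more.

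The libraries held 12111126 to 14820759 counts. Trp53, the gene that carries the mutation, was at 362 and 302 CPM (counts scaled for library size) in WT, against 245 and 332 CPM in p53R248W/+, and gene counts do not tell its alleles apart. The p53 target Cdkn1a, the cell cycle inhibitor p21, had WT levels of 74.3 and 39.9 CPM and p53R248W/+ levels of 16.8 and 15.6 CPM, where the groups did not overlap (adjusted p = 0.824, edgeR quasi-likelihood test). All 9 stem and progenitor markers, Kit and Ly6a (Sca1) among them, were counted, and their summed level was 3291 and 3636 CPM in WT, compared with 4346 and 4021 CPM in p53R248W/+. Markers of other lineages were also counted. The 9 erythroid markers summed to 14.5 to 26.0 CPM over the 4 libraries, with the 4 globin genes at 0 in each and Alas2 at 102 to 194 counts. The treatment of multiply aligned reads is not given, so a count of 0 need not mean that globin RNA was absent. The 8 T and NK cell markers summed to 67.9 to 83.4 CPM, mostly from Klrb1c and Nkg7. Cd3g was at 0 in each, Cd3e at 1 to 25 counts, Cd3d at 0 to 22, Cd4 at 4 to 81, Cd8a at 0 to 6 and Ncr1 at 0 to 11. The 6 megakaryocyte markers summed to 586 and 663 CPM in WT, compared with 621 and 486 CPM in p53R248W/+, mostly from Vwf. Of these, Itga2b and Pf4 were lower in both p53R248W/+ libraries, while Gp9, Vwf, Gp1bb and Ppbp overlapped. That is 2 of 6 without overlap, or 33.3%, beside 33.6% of all genes tested (16.6% lower). The 9 B cell markers summed to 8.44 and 13.7 CPM in WT, compared with 45.8 and 24.4 CPM in p53R248W/+, with Pax5 at 0 in each, and the 11 matched granulocyte and monocyte markers to 1762 and 622 CPM against 1062 and 847 CPM. Their part in the results below was not tested. In a bulk library, fewer cells of a type and less RNA per cell cannot be told apart.

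Of the 10 genes, 9 passed the filter on low counts and were compared between the genotypes; Tdg did not pass. None of the 9 passed an adjusted p of 0.05 in edgeR's quasi-likelihood test, where 0% of all 13296 tested genes were called, nor did any of the 9 with DESeq2 (6 calls over all genes) or limma-voom (0 calls). At an unadjusted p under 0.05 there were 2 of the 9, beside 5.87% of all genes tested: Dnmt3a, higher in p53R248W/+ beside 3.01% of all genes, and Idh2, lower beside 2.86%. That count was 2 with DESeq2 and 4 with limma-voom. When single libraries were left out it was 0 for replicate 1 of either genotype, 1 for replicate 2 of WT and 3 for replicate 2 of p53R248W/+. The genotypes did not overlap for 5 of the 9, with Dnmt3a and Dnmt3b higher and Dnmt1, Uhrf1 and Idh2 lower in both p53R248W/+ libraries, beside 33.6% of all genes tested (16.9% higher, 16.6% lower). The 3 Tet genes and Idh1 overlapped. The median log2 fold change of p53R248W/+ over WT was -0.0072 over the 9 genes and -8.8e-05 over all tested genes.

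**Figure D1:**
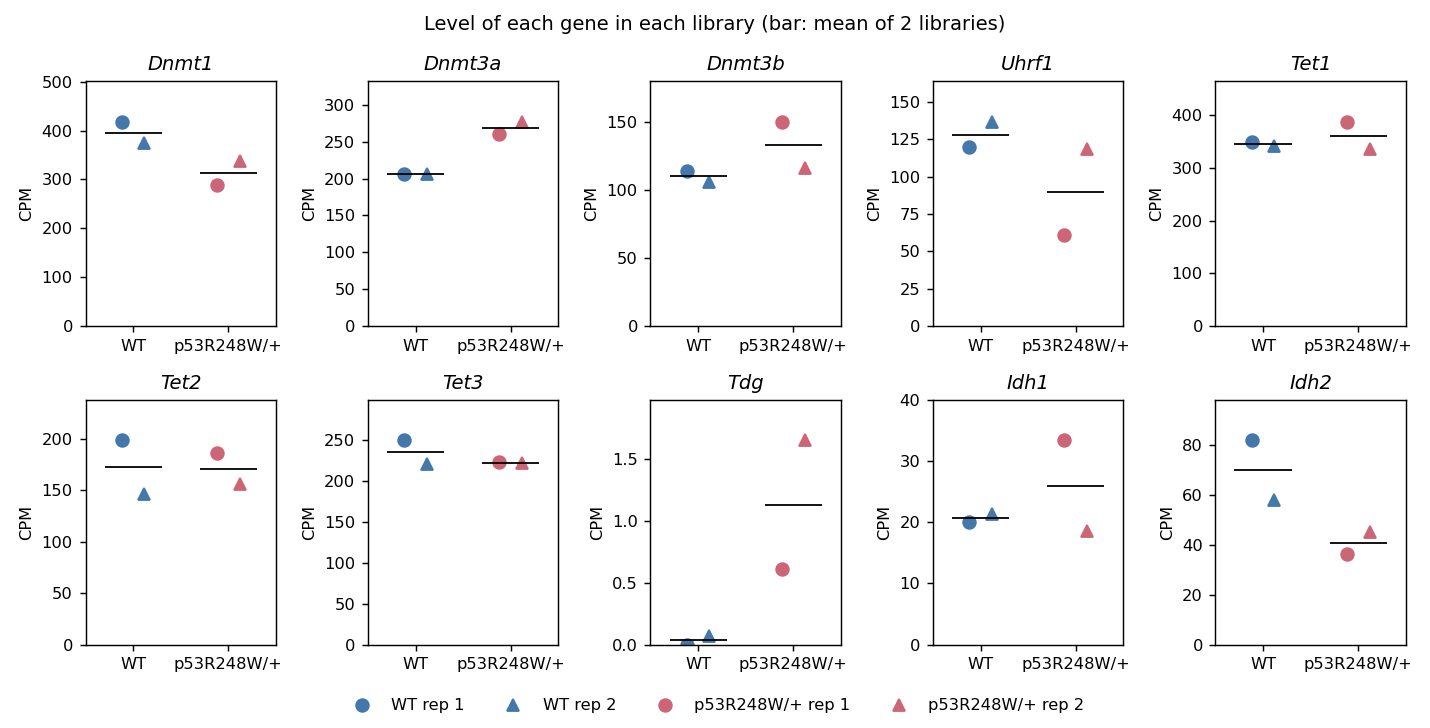
TMM-scaled CPM (vertical axis, from 0) of each of the 10 genes in WT and p53R248W/+ libraries; points are single libraries, circles replicate 1 and triangles replicate 2, and bars the mean of 2. The p53R248W/+ points lie on one side of the WT points for Dnmt1, Dnmt3a, Dnmt3b, Uhrf1 and Idh2, and Tdg stays under 2 CPM.

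Dnmt1, the maintenance methyltransferase (mm10 chr9:20907206-20959888, minus strand, 41 exon blocks), measured 418 and 374 CPM for WT against 288 and 337 CPM for p53R248W/+. Both p53R248W/+ libraries were below both WT libraries, with means of 396 ± 31.2 and 312 ± 34.8 CPM (SD, n = 2). The log2 fold change was -0.34 ± 0.17 (SE), with a 95% interval from -0.70 to 0.0073 (adjusted p = 0.824, edgeR quasi-likelihood test). It stayed negative with each library left out, from -0.46 without p53R248W/+ replicate 2 to -0.23 without p53R248W/+ replicate 1.

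Uhrf1, the partner that brings Dnmt1 to half-methylated DNA (chr17:56303337-56323486, plus strand, 18 exon blocks), had WT levels of 119.7 and 137 CPM and p53R248W/+ levels of 60.7 and 118 CPM. Only p53R248W/+ replicate 1 stood far below the WT libraries, while replicate 2 lay just under the lower of them. The log2 fold change of -0.54 ± 0.28 (SE; 95% interval -1.14 to 0.059; adjusted p = 0.825, edgeR quasi-likelihood test) was -0.11 once p53R248W/+ replicate 1 was left out, and -1.08 once its replicate 2 was. Of its distinct stretches of 50 bases in GENCODE M21 transcripts, 15.4% also occur in transcripts of Gm5648 and Gm15953, so its count is less certain than that of Dnmt1, for which the share was 0.761%.

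Dnmt1 and Uhrf1 transcripts are known to be more abundant in cells that replicate DNA, so the level of replication genes is set beside them. The 22 S phase genes of a chosen list, such as Mcm2, Pcna and Rrm1, summed to 2376 and 2462 CPM in WT, compared with 1613 and 2202 CPM in p53R248W/+. Of these 22 genes 21 had a log2 fold change below 0, with a median of -0.31, beside 50% of all genes below 0. None passed the threshold, and 4 were lower at an unadjusted p under 0.05, beside 2.86% of all genes tested. The genotypes did not overlap for 9 of the 22, or 40.9% (8 lower, 1 higher), beside 33.6% of all genes tested. The library with the lowest S phase sum, p53R248W/+ replicate 1, was also the lowest for Dnmt1 and Uhrf1. As a share of the S phase sum, Dnmt1 stood at 17.6% and 15.2% in WT and at 17.8% and 15.3% in p53R248W/+. On that scale the genotypes overlapped and each replicate 1 was near the other. Uhrf1 stood at 5.04% and 5.55% in WT and at 3.76% and 5.38% in p53R248W/+, so that replicate 1 of p53R248W/+ was still the lowest and replicate 2 lay between the WT libraries. The 15 G2/M genes summed to 1719.7 and 2810.4 CPM in WT, compared with 1354 and 2653 CPM in p53R248W/+, mostly from Mki67 and Top2a. These sums separated the replicate numbers rather than the genotypes. Gene by gene, 13 of the 15 had a log2 fold change below 0, with a median of -0.25, beside 50% of all genes. Of the 15, 2 (13.3%) were lower with no overlap, beside 16.6% of all genes tested, and 0 were at an unadjusted p under 0.05. Hells and Cdca7, further genes of maintenance methylation, stood at 2.91% to 4.09% and at 3.09% to 4.13% of the S phase sum and overlapped. Dnmt3a stood at 8.67% and 8.36% in WT and at 16.1% and 12.6% in p53R248W/+. Its level was higher and the S phase sum lower in both p53R248W/+ libraries, so these shares could not overlap and add nothing to the levels. These shares were chosen after the values were seen, divide the same libraries by a sum that is lowest in the same library, and are a description. The part of cell cycle differences in the Dnmt1 and Uhrf1 values was not tested.

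**Figure D2:**
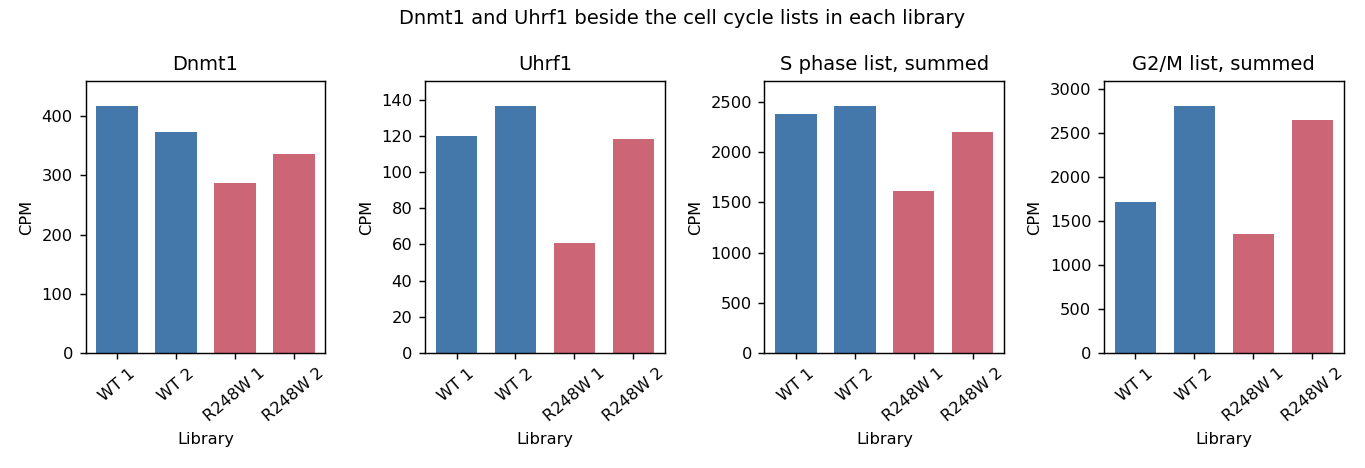
CPM (vertical axis, from 0) of Dnmt1, Uhrf1, the sum of 22 S phase genes and the sum of 15 G2/M genes; each bar is 1 library, blue WT and red p53R248W/+. Replicate 1 of p53R248W/+ is the lowest bar in each panel, at 288, 60.7, 1613 and 1354 CPM.

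Dnmt3a, which sets new methyl marks (chr12:3806980-3914443, plus strand, 25 exon blocks), measured 206.0 and 205.9 CPM for WT against 259.9 and 277 CPM for p53R248W/+. The WT libraries were nearly equal, and both p53R248W/+ libraries were above them, a difference of 1.30-fold in the fit. The log2 fold change was 0.38 ± 0.18 (SE), with a 95% interval from 0.0021 to 0.76 (unadjusted p = 0.0489 and adjusted p = 0.824, edgeR quasi-likelihood test). With each library left out it ran from 0.33 to 0.43.

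Dnmt3b, the second enzyme for new marks (chr2:153649449-153687730, plus strand, 24 exon blocks), had WT levels of 114 and 105 CPM and p53R248W/+ levels of 149.7 and 116 CPM. Replicate 1 of p53R248W/+ was high and replicate 2 was just above the higher WT library. The log2 fold change of 0.28 ± 0.23 (SE; 95% interval -0.21 to 0.78; adjusted p = 0.887, edgeR quasi-likelihood test) became 0.081 when p53R248W/+ replicate 1 was left out, and 0.45 when its replicate 2 was. Of its stretches of 50 bases, 9.81% also occur in the paralog Dnmt3c.

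The balance among the 3 methyltransferases was read per exon length, as CPM per kilobase, so that genes can be compared. Their summed level was 113 and 104 CPM per kilobase in WT and 106 and 108 in p53R248W/+, so the sums overlapped. Dnmt1 made up 58.5% and 56.8% of that sum in WT and 42.9% and 49.4% in p53R248W/+. The share of Dnmt3a was 18.3% and 19.8% in WT and 24.6% and 25.8% in p53R248W/+, and that of Dnmt3b was 23.3% and 23.4% against 32.5% and 24.8%. The level of Dnmt1 was 3.20 and 2.86 times that of Dnmt3a for WT and 1.75 and 1.92 times for p53R248W/+. These shares restate the counts of genes chosen with earlier results known and carry no test of their own.

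Promoters of 3 of the 5 genes that did not overlap are shown: the maintenance pair Dnmt1 and Uhrf1, lower in p53R248W/+, and Dnmt3a, which sets new marks and was higher. CpG, in capitals, is the pair of bases that the enzymes act on. Each run is the 250 bases before a RefSeq transcript start (GRCm38.p6, the same assembly as mm10), 5′ to 3′ on the gene's strand, and none overlaps an exon of the gene in the table or in GENCODE M21. Methylation of these sequences was not measured here.
Dnmt1, chr9:20952980-20953229, minus strand: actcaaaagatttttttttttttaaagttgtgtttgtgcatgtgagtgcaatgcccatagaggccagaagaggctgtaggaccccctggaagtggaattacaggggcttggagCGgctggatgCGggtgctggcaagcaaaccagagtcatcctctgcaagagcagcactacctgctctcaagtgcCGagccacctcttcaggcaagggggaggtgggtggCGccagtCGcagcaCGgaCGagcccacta
Uhrf1, chr17:56304063-56304312, plus strand: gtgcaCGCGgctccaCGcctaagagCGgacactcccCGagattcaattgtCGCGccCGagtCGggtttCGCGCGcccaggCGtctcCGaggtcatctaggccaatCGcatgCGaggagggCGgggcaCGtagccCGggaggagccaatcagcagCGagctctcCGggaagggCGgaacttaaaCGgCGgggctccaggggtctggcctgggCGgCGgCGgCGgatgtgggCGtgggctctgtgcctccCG
Dnmt3a, chr12:3806730-3806979, plus strand: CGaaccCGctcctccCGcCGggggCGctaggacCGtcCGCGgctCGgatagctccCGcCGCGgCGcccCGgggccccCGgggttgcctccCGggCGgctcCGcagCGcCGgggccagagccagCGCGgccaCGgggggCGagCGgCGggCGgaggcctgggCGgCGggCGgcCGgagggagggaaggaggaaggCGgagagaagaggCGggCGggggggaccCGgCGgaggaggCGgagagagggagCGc
The number of CpG depends on the start taken. The Dnmt1 run holds 7 CpG and belongs to a start 6909 bases inside the outer end of the row; the outermost start has 2 CpG in its 250 bases, and the innermost, not printed because 166 of its 250 bases are exon, has 26. The Uhrf1 run holds 30 CpG, at a start 976 bases inside the row, and the window at the outer end holds 10. The Dnmt3a run, unlike those of Dnmt1 and Uhrf1, was taken at the outer end of its row, so the 3 runs are not at like starts. It holds 38, and windows at the further starts of Dnmt3a hold 40 and 15. The windows of Dnmt3b and Idh2, the other genes that did not overlap, hold 21 and 17. Over 32841 RefSeq promoters of the same length the median was 6, and 53.7%, 94.1% and 98.1% of them held fewer CpG than the Dnmt1, Uhrf1 and Dnmt3a runs, which describes these runs and not the genes. All 10 genes had at least 1 entry in the promoter table, 16 in all, with 2 to 51 CpG. Gene counts do not show which start was used.

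The 3 Tet genes, which begin the removal of methylation, showed no separation of the genotypes. Tet1 (chr10:62804570-62880014, minus strand) measured 349.8 and 342 CPM for WT against 387 and 335 CPM for p53R248W/+. Tet2 (chr3:133463677-133544390, minus strand) had WT levels of 199 and 147 CPM and p53R248W/+ levels of 187 and 156 CPM, with the replicates of a genotype further apart than the genotype means of 173 and 171 CPM. Tet3 (chr6:83362374-83441678, minus strand) measured 249.5 and 220.3 CPM for WT against 223 and 222 CPM for p53R248W/+, both between the WT values. The log2 fold changes were 0.064 ± 0.16 for Tet1, -0.0072 ± 0.22 for Tet2 and -0.079 ± 0.18 for Tet3 (SE; adjusted p = 0.968 to 0.997, edgeR quasi-likelihood test). Their 95% intervals ran from -0.28 to 0.41, from -0.46 to 0.45 and from -0.47 to 0.31, for Tet1, Tet2 and Tet3. Each of the 3 changed sign when at least 1 library was left out.

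Per exon length the Tet genes shared their sum nearly evenly in every library. Tet1 made up 35.8% to 40.3%, Tet3 29.9% to 33.4% and Tet2 26.4% to 31.2%. The summed Tet level was 69.4 and 60.5 CPM per kilobase in WT and 68.3 and 61.1 in p53R248W/+, with replicate 1 above replicate 2 in both genotypes.

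Tdg, the glycosylase that completes active demethylation (chr10:82629838-82650494, plus strand, 10 exon blocks), had 0 and 1 counts for WT, and 9 and 20 for p53R248W/+. Both WT values lie under the detection limit of 3 counts, which corresponds to 0.202 to 0.248 CPM over the 4 libraries. Over the pooled libraries the p53R248W/+ rate was 30.9 times the WT rate, with an exact Poisson interval from 5.12 to 1260.2, which covers counting error only and not the spread between libraries. In the deposited table the row of Tdg overlaps other rows. Of its 3218 exon bases, 2898 or 90.1% also belong to a row named Gm9855, which lies wholly inside Tdg's exons there and has 0 counts in every library. GENCODE M21 places Gm9855 elsewhere, at chr10:42054113-42055306. A further 62 exon bases overlap Glt8d2 on the other strand, which leaves 258 bases in no other row. In addition, 41.2% of Tdg's stretches of 50 bases occur in transcripts of other genes, led by Tdg-ps and Gm9855. With Gm9855 at 0 counts, no read was counted for both rows. How reads in shared bases or at several places were otherwise treated is not stated in the sources used here. Neither the level of Tdg nor its ratio between the genotypes can therefore be read from these counts. The other 9 genes share no exon base with any row of the table.

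Idh2, the mitochondrial isocitrate dehydrogenase (chr7:80094847-80115350, minus strand, 11 exon blocks), had the smallest unadjusted p of the 9 tested genes. It had WT levels of 81.9 and 57.9 CPM and p53R248W/+ levels of 36.2 and 45.2 CPM. Both p53R248W/+ libraries were below both WT libraries, and the WT libraries themselves differed 1.41-fold. The fitted level in p53R248W/+ was 0.578 of that in WT, a log2 fold change of -0.79 ± 0.33 (SE) with a 95% interval from -1.49 to -0.095 (unadjusted p = 0.0283 and adjusted p = 0.824, edgeR quasi-likelihood test). It was rank 406 of the 13296 genes by p. The log2 fold change was -0.52 when WT replicate 1 was left out and -1.01 when WT replicate 2 was left out.

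Idh1, the cytosolic enzyme (chr1:65158616-65186479, minus strand, 10 exon blocks), measured 20.2 and 21.3 CPM for WT against 33.5 and 18.6 CPM for p53R248W/+. Replicate 1 of p53R248W/+ was the highest library and replicate 2 the lowest, so the genotype contrast rests on 1 library. The log2 fold change was 0.36 ± 0.46 (SE; 95% interval -0.62 to 1.33; adjusted p = 0.937, edgeR quasi-likelihood test) and -0.16 without p53R248W/+ replicate 1. Per exon length, Idh2 was 5.82 and 3.89 times the level of Idh1 in WT and 1.55 and 3.48 times in p53R248W/+. The ratio was above 1 in every library, and lower in both p53R248W/+ libraries. It restates the counts of both genes and carries no test of its own. Its lowest value was in p53R248W/+ replicate 1, where Idh1 was highest and Idh2 lowest.

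**Figure D3:**
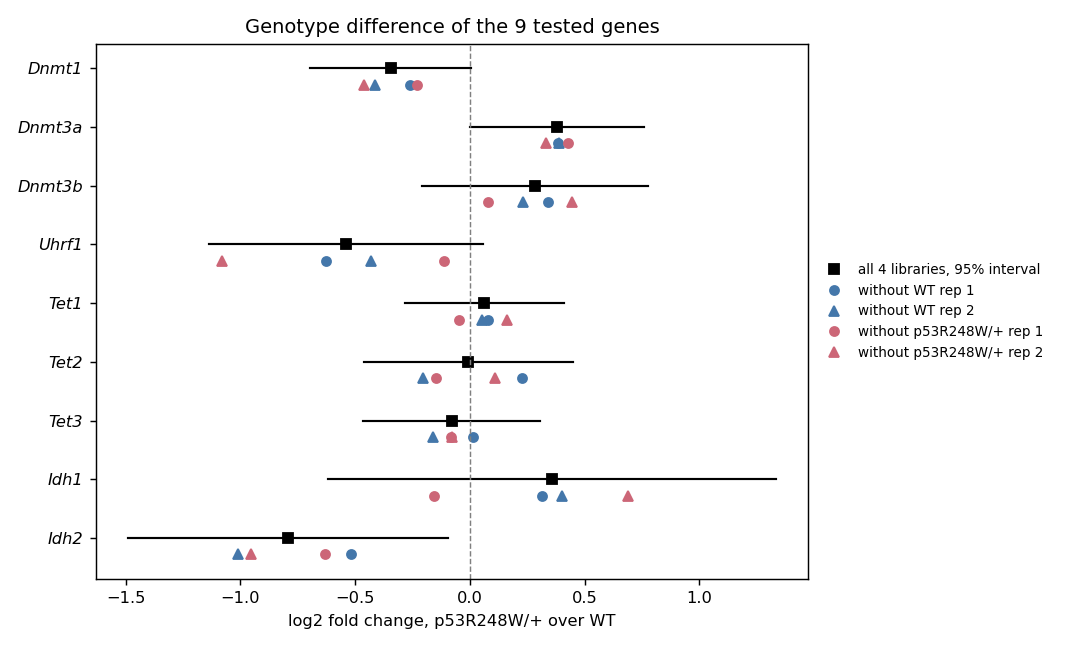
Log2 fold change of p53R248W/+ over WT (horizontal axis) of the 9 tested genes from all 4 libraries (black square, line for the 95% interval) and with 1 library left out (coloured points below). The interval lies wholly on one side of 0 for Dnmt3a and Idh2, and the points of Uhrf1 spread from -1.08 to -0.11.

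Ordered by mean level per exon length, Dnmt1 came first at 45.6 to 66.3 CPM per kilobase, above 92.2% of the tested genes. Idh2 (21.2 to 48.1), Uhrf1 (16.6 to 37.4), Dnmt3b (24.4 to 34.6), Tet1 (23.8 to 27.5), Dnmt3a (20.7 to 27.8), Tet3 (20.2 to 22.9) and Tet2 (16.0 to 21.7) followed. Every pair of neighbours from Dnmt1 to Tet2 had overlapping ranges over the 4 libraries, although Dnmt1 was above Idh2, Dnmt3b above Tet1 and Tet3 above Tet2 within each of the 4. Idh1, at 7.62 to 13.7 CPM per kilobase, was below Tet2 with no overlap, and near the middle of all tested genes (percentile 48.9). Tdg was lowest, with the limits given above.

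**Figure D4:**
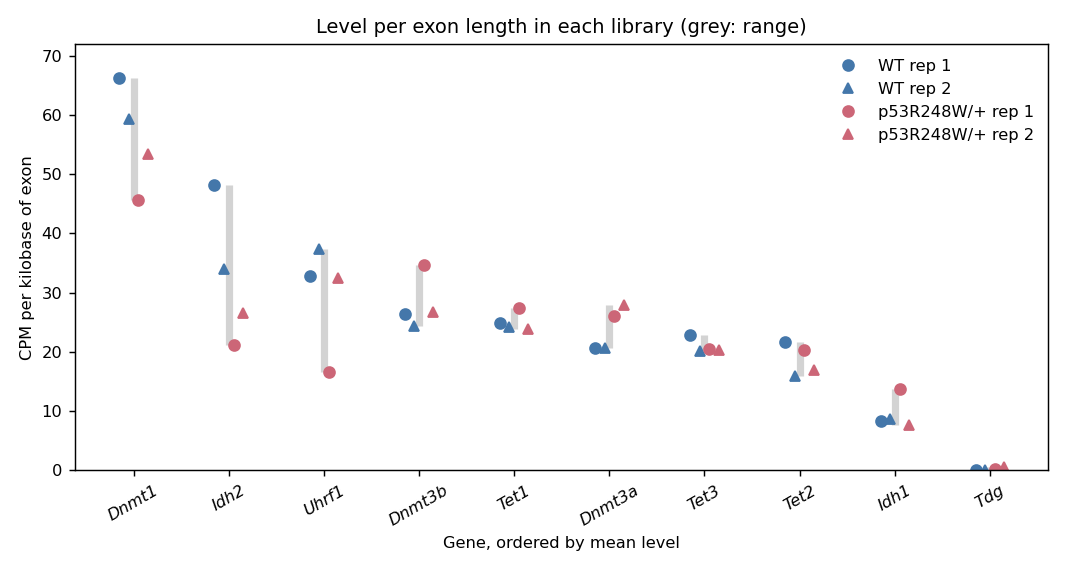
CPM per kilobase of exon (vertical axis, from 0) of the 10 genes in each library, ordered by mean; grey bars span the 4 libraries. Dnmt1 lies at 45.6 to 66.3, the ranges from Dnmt1 down to Tet2 overlap neighbour by neighbour, and Idh1 lies at 7.62 to 13.7.

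The wider pathway was read from a list of 71 genes in 6 roles, all matched, of which 67 were tested and 4, with Dnmt3l, Dppa3 and Wt1 among them, were at 0 in every library. None of the 67 passed the threshold, 32 had a log2 fold change above 0 and 35 below, and the median was -0.014. The genotypes did not overlap for 24 of the 67, or 35.8%, close to the 33.6% of all genes tested. At an unadjusted p under 0.05 there were 3 of the 67, with Aco1 and Ogt among them, beside 5.87% of all genes. The median sign changed when WT replicate 2 (0.094), p53R248W/+ replicate 1 (0.047) or p53R248W/+ replicate 2 (0.014) was left out. The median of all tested genes was then 0.056, -0.040 and -0.041, in that order.

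Among cofactors and targeting factors, 7 of 13 tested genes had positive and 6 negative values, with a median of 0.014. Hells and Cdca7 form a chromatin remodelling complex that supports maintenance methylation. Hells had WT levels of 81.1 and 81.6 CPM and p53R248W/+ levels of 47.0 and 90.03 CPM. For Cdca7 the WT levels were 81.2 and 82.1 CPM and the p53R248W/+ levels 49.9 and 90.9 CPM. As with Uhrf1, replicate 1 of p53R248W/+ was the lowest library for both; replicate 2 was the highest for Hells and Cdca7. Trim28, a corepressor that protects imprinted methylation and the highest of the role per length, had WT levels of 285 and 239 CPM and p53R248W/+ levels of 208 and 206 CPM (log2 fold change -0.34 ± 0.19, SE; adjusted p = 0.825, edgeR quasi-likelihood test). Of the 7 methyl-CpG readers, 4 were above 0 and 3 below, with a median of 0.23, led in level by Mbd2 at 75.5 and 88.0 CPM against 93.6 and 116 CPM.

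Genes of base excision and deamination had 7 values above 0 and 6 below (median 0.068), and Apobec3, a cytidine deaminase and the highest of them, overlapped between the genotypes at 282 to 344 CPM. Of 8 tested Tet partners 3 were above 0 and 5 below. The highest was Ogt, an enzyme that attaches GlcNAc sugars to proteins and binds Tet2 and Tet3, at 592 and 703 CPM in WT, compared with 842 and 755 CPM in p53R248W/+. It did not overlap, with a log2 fold change of 0.30 ± 0.14 (SE; adjusted p = 0.824, edgeR quasi-likelihood test) that was 0.19 without WT replicate 1. In the methyl donor cycle, 4 of 9 genes were above 0 and 5 below, and Mat2a, which makes S-adenosylmethionine, measured 682 and 708 CPM for WT against 684 and 711 CPM for p53R248W/+. Its 95% interval ran from -0.28 to 0.29 on the log2 scale.

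The 17 genes around 2-oxoglutarate had 7 values above 0 and 10 below, with a median of -0.081. Aco1, the cytosolic aconitase that also binds iron-responsive RNA elements, had WT levels of 23.8 and 20.5 CPM and p53R248W/+ levels of 47.4 and 39.2 CPM. Both p53R248W/+ libraries were above both WT libraries, and the log2 fold change was 0.98 ± 0.40 (SE; adjusted p = 0.824, edgeR quasi-likelihood test). Glud1, glutamate dehydrogenase and the highest of the role per length, overlapped at 391 to 507 CPM. The 3 subunits of the NAD-dependent enzyme, Idh3a, Idh3b and Idh3g, had log2 fold changes of -0.21 ± 0.33, -0.081 ± 0.25 and 0.00012 ± 0.22 (SE).

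**Figure D5:**
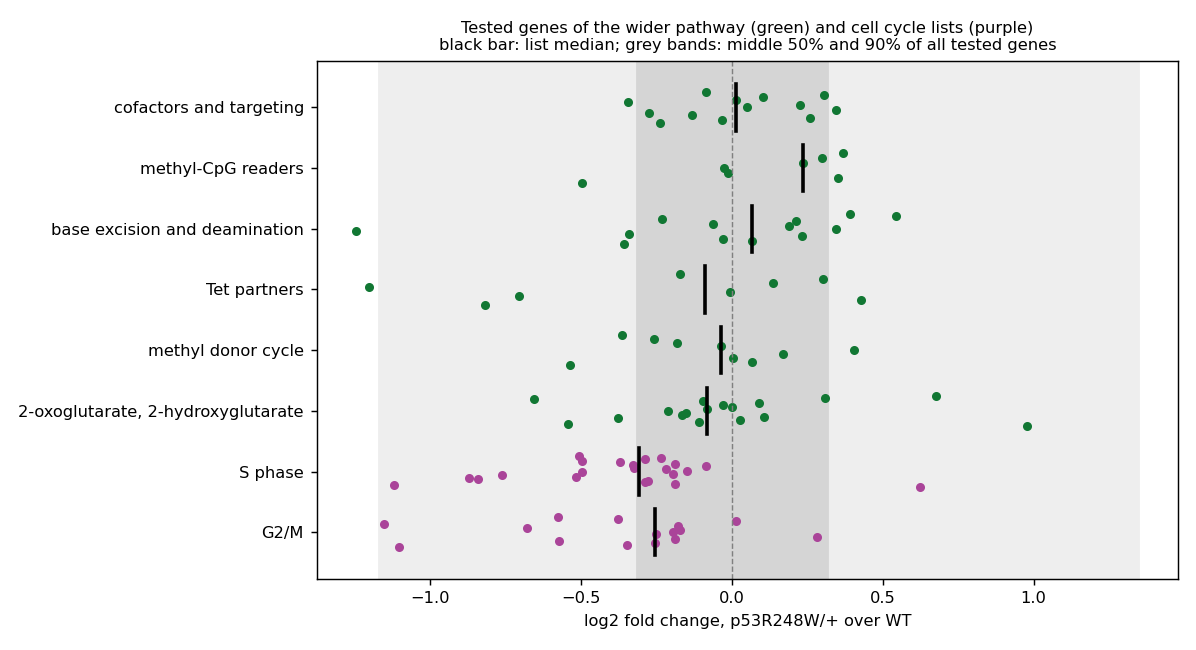
Log2 fold change of p53R248W/+ over WT (horizontal axis) of the tested genes in 6 roles of the wider pathway (green) and in the S phase and G2/M lists (purple); black bars are list medians, and grey bands hold the middle 50% and 90% of all tested genes. Medians of the 6 roles lie from -0.089 to 0.23, and those of the S phase and G2/M lists at -0.31 and -0.25.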

How the data were processed

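The data were raw read counts per gene, made and deposited by the authors for 4 libraries, with exon positions and lengths. The build mm10 and the tools STAR 2.7.10a, FastQC 0.11.5, edgeR 3.40.2, Subread 2.0.3 and its featureCounts are named, per the submitters' processing notes; the strand setting and the treatment of multiply aligned reads are not given in the sources used here. Columns were matched to samples by genotype and number. Genes were filtered with filterByExpr (minimum count 10, minimum total 15), which left 13296, scaled by TMM and tested two-sided for genotype in edgeR 4.0.16 under R 4.3.3 (quasi-likelihood, robust=TRUE, legacy=FALSE), with no other term. Benjamini-Hochberg adjustment ran over every tested gene, at a threshold of 0.05. CPM use TMM-scaled totals, and SDs are over 2 libraries. Overlap means that the ranges of the 2 libraries per genotype meet. The 3-count detection limit covers counting error only.

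All 10 members were named whatever their values. From the wider list the rule named genes past the threshold, up to 8 at an unadjusted p under 0.05, and the highest gene per length of each role; Hells, Cdca7, Idh3a, Idh3b and Idh3g were chosen after their values were seen, as were the promoters and the shares of the S phase sum. Members and lists were chosen with earlier results of these data known. Ly6g was not matched by symbol. Some genes that the lists hold are not reported here. Alternatives were median-ratio and total-count scaling, DESeq2 1.42.0, limma-voom (limma 3.58.1), no filter, a stricter filter (mean of 5 CPM, and 1 CPM in 2 libraries), a block on the replicate number, each library left out and, added after the data were seen, the legacy quasi-likelihood method. Promoters came from RefSeq (GRCm38.p6).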

Additional observations from a re-analysis of the deposited data

How the results depend on the processing

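No alternative called any of the 10 genes or of the wider list. Over all genes, DESeq2 called 6 (3 higher, 3 lower), and leaving out single libraries gave 0 to 1, the 1 without p53R248W/+ replicate 2. At an unadjusted p under 0.05 the count of 780 was 787 with DESeq2, 618 with limma-voom, 638 with the legacy method, and 336 to 1083 with single libraries left out, the lowest without p53R248W/+ replicate 1. Of 136 log2 fold changes of 17 genes under the other settings, 135 kept their sign: Tet2 was at 0.0086 with limma-voom. With single libraries left out, 10 of 68 turned, in 7 genes: Tet1 (-0.046 to 0.16), Tet2 (-0.20 to 0.23), Tet3 (-0.16 to 0.015), Idh1 (-0.16 to 0.69), Apobec3 (-0.18 to 0.10), Mat2a (-0.024 to 0.039) and Glud1 (-0.062 to 0.31). The wider list's median ran from -0.045 to 0.094, and that of all tested genes from -0.041 to 0.056. The cause of these shifts was not tested.

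The replicate numbers share no stated source, and the replicate differences of the 2 genotypes correlated at 0.0049 across genes. Levels on the log2 scale correlated at 0.927 within each genotype and at 0.909 to 0.945 between genotypes. The most alike pair was replicate 2 of WT and replicate 2 of p53R248W/+, so libraries of 1 genotype were not set apart from the other. With the replicate number as a block, 0 genes were called, 0 of the 9 tested members among them, and 758 genes were at an unadjusted p under 0.05. A lone library in a left-out fit is assumed to vary like the other genotype's pair. With 2 libraries per genotype and a biological coefficient of variation of 46.0%, the intervals are wide, and Tdg could not be assessed at its counts.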
